A study of Arabidopsis thaliana with 23 samples.

Results

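The genes described here were 41 Arabidopsis thaliana genes of the cell cycle and of DNA replication, listed by gene identifier, with earlier results of these data known. They were 6 D-type, 4 A-type and 8 B-type cyclins, 5 cyclin-dependent kinases (CDKs), 6 genes of mitosis and cytokinesis, 8 genes of the replication fork (MCM2 to MCM7, PCNA1 and PCNA2) and 4 CDK inhibitors. All 41 were found among the 27655 genes of the deposited mRNA table, which held 11 libraries of whole seedlings. The 4 groups were sos2-2 mutants in 100 mM NaCl (3 libraries), sos2-2 mutants on MS medium (2 libraries), wild type in 100 mM NaCl (3 libraries) and wild type on MS (3 libraries). SOS2 is a protein kinase that activates sodium export at the plasma membrane, and MS is a standard plant growth medium.

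All seedlings were 10 days old and came from MS plates with 3% sucrose and 0.6% phytagel at 22 °C. All groups shared a cold treatment of 2 days at 4 °C. Salt treatment lasted 12 hours, in liquid MS. The labels do not say whether MS seedlings were also moved to liquid, so NaCl and the move cannot be told apart. The mutant was represented by 1 allele, sos2-2, with no rescued line, and the design text calls the wild type gl1. Whether sos2-2 carries gl1 too is not stated in the sources used here, so in comparisons of genotypes an effect of gl1 cannot be told apart from one of sos2-2. SOS2 itself (AT5G35410) averaged 1.003 ± 0.258 TPM in sos2-2 in NaCl (SD, n = 3), 1.30 ± 0.0846 TPM in sos2-2 on MS (SD, n = 2), 1.09 ± 0.145 TPM in wild type in NaCl and 1.084 ± 0.178 TPM in wild type on MS (SD, n = 3 each), so its transcript level did not separate the genotypes. Whether replicates came from separate cultures is not stated, so the p-values reflect how much these libraries varied, which could be technical variation only.

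Plant cells pass through the cycle under CDKs that are active only with a cyclin partner. D-type cyclins act at the entry into the cycle, where they set free E2F transcription factors, which switch on genes of DNA synthesis such as the MCM helicase subunits and PCNA. A-type cyclins act from S phase onwards, and B-type cyclins and B-type CDKs act around mitosis, where MYB3R factors bind an element called MSA in their promoters. CDC20 then activates the ubiquitin ligase that destroys mitotic cyclins, KNOLLE is the syntaxin of the cell plate, and inhibitors of the KRP and SIAMESE families hold CDKs back, and SIAMESE-type inhibitors do so as cells leave division for endoreduplication. In a seedling, dividing cells are few and lie mainly in root and shoot tips and in young leaves.

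The promoters of the groups carried different elements. The 250 bases before each annotated gene start were read from the TAIR10.1 RefSeq assembly and searched on both strands for the MSA core AACGG and for 4 spellings of the E2F site, TTTCCCGC, TTTCGCGC, TTTGCCGC and TTTGGCGC. An AACGG lay in 17 of 41 members (41.5%), against 5645 of 27443 protein-coding promoters (20.6%). At least 2 copies stood in 6 of 8 B-type cyclins (75.0%), against 994 of all promoters (3.62%). CYCB1;4 and CYCB2;4 were the B-type cyclins without a match. An E2F spelling was found in 5 of the 8 replication genes (62.5%) and in 6 of 41 members (14.6%), against 387 of all promoters (1.41%). The members with an E2F spelling were MCM2, MCM3, MCM4, MCM5, MCM6 and CYCD3;3. KRP1 had 6 copies of AACGG, and KRP2 had 2. These matches are spellings in the sequence, not measured binding sites.

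**Figure D1:**
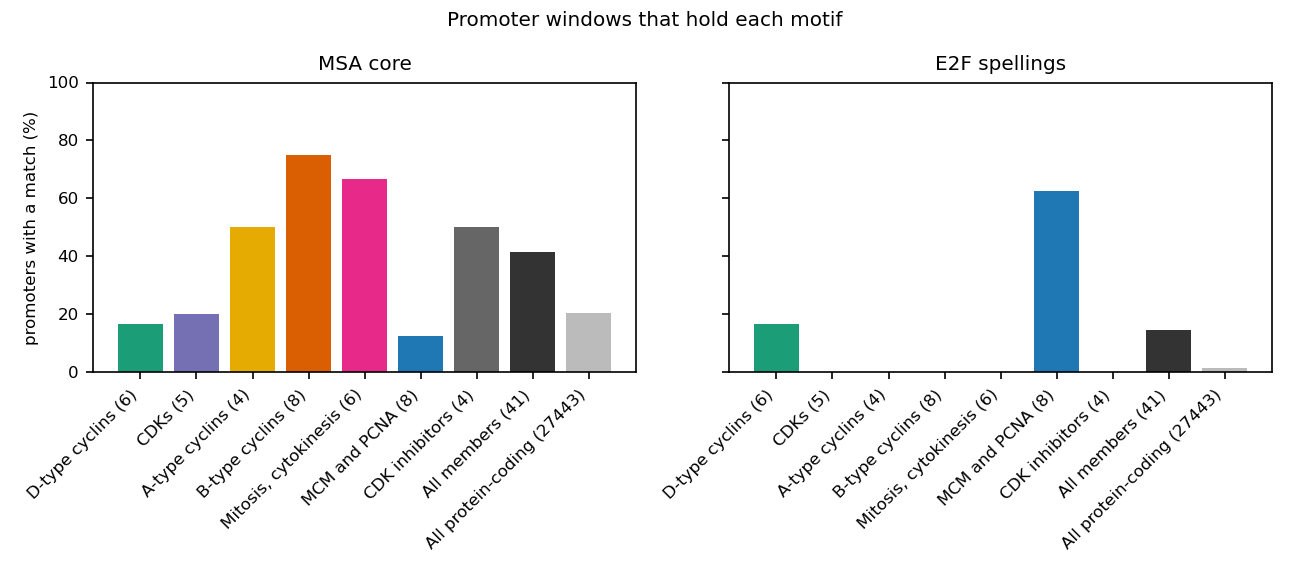
Share of promoter windows (y axis, percent) that hold the MSA core (left panel) or an E2F spelling (right panel) in each group of members, in all members and in all protein-coding genes, with the number of promoters in brackets. MSA matches are most frequent in B-type cyclins (75.0%) and E2F matches in the replication genes (62.5%), against 20.6% and 1.41% of all protein-coding promoters.

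Windows of 4 of the 6 B-type cyclins with 3 or 4 copies of the MSA core are printed, as examples that were called lower with salt in sos2-2, with the core shown in capitals as AACGG or, on the other strand, CCGTT. CYCB1;1, which was called there too, and CYCB2;1, which was called in no comparison, carry 3 copies each and are not printed. Each is given 5′ to 3′ in the direction of the gene, so that the last base stands next to the annotated start. The window of CYCB1;2 is chr5:1861704-1861953 on the minus strand, with copies that begin 143, 69, 43 and 11 bases before the start. That of CYCB1;3 is chr3:3627274-3627523 on the minus strand, that of CYCB2;2 is chr4:16901346-16901595 on the plus strand, and that of CYCB2;3 is chr1:7137829-7138078 on the minus strand.
CYCB1;2: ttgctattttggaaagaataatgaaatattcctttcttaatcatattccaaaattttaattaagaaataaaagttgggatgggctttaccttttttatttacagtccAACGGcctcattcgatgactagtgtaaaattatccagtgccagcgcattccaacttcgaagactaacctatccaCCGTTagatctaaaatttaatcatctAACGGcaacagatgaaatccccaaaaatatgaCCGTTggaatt
CYCB1;3: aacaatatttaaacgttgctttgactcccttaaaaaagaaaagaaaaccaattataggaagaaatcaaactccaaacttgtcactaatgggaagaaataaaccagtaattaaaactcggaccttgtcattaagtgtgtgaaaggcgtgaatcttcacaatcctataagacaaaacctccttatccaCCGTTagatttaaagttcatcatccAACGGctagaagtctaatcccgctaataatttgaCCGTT
CYCB2;2: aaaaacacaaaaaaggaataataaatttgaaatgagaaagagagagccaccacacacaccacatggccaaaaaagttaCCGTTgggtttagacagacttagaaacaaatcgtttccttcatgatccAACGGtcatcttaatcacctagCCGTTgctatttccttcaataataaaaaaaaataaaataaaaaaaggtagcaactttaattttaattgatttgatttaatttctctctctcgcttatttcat
CYCB2;3: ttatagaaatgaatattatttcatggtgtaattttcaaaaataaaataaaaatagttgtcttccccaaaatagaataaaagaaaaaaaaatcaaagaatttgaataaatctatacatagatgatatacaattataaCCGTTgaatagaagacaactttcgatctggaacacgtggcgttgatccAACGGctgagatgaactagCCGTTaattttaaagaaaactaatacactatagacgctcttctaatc

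Windows of 3 helicase subunits are printed for their E2F spellings, again in capitals, with GCGCCAAA as the other strand of TTTGGCGC. MCM2 lies at chr1:16969964-16970213 on the plus strand with TTTCCCGC beginning 14 bases before the start. MCM3 lies at chr5:18773707-18773956 on the minus strand with TTTGGCGC 170 bases before it. MCM5 lies at chr2:3527501-3527750 on the minus strand with TTTCCCGC 19 bases before it.
MCM2: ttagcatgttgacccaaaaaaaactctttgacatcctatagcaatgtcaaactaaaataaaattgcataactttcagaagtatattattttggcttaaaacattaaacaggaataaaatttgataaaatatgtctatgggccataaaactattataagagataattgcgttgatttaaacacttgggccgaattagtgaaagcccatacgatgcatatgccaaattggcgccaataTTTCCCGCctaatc
MCM3: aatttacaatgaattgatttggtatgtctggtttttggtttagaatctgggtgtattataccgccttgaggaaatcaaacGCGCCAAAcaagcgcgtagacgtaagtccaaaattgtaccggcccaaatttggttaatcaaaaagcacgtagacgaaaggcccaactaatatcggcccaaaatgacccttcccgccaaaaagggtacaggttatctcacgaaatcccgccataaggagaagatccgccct
MCM5: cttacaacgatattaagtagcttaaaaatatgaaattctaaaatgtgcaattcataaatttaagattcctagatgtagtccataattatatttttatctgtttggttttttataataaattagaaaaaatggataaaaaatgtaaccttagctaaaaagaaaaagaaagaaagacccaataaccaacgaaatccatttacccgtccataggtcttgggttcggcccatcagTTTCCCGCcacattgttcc

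Values were TPM, transcript levels per length scaled to a fixed total, which keep no sequencing depth, so the depth behind each value is unknown. Plastid transcripts took 67.9 ± 1.95% of the total in sos2-2 in NaCl (SD, n = 3), 70.8 ± 3.08% in sos2-2 on MS (SD, n = 2), 75.0 ± 3.97% in wild type in NaCl and 68.3 ± 3.08% in wild type on MS (SD, n = 3 each), and since TPM has a fixed total, nuclear genes lose TPM where plastid transcripts take more. Levels are therefore given as normalised TPM, which is TPM divided by a size factor per library (0.705 to 1.23), and log2 changes of log2(TPM + 1) are relative to the median tested gene. On the deposited scale that median moved by 0.16 with salt in sos2-2, -0.21 with salt in wild type, 0.32 in sos2-2 against wild type in NaCl and -0.05 on MS. A change was called at a limma adjusted p under 0.05 over all 16564 tested genes, and the pseudocount of 1 understates changes of low genes. Of the wild-type NaCl libraries, replicate 1 stood apart: without it 3748 genes were called for salt in wild type, against 1689 with it. On the log2 scale it correlated (Pearson) at 0.964 and 0.954 with replicates 2 and 3 of its own group. With the wild-type MS libraries it correlated at 0.965 to 0.971. The reason was not tested. In whole seedlings, fewer dividing cells and less of an mRNA per cell cannot be told apart.

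Of the 41 members, 38 passed the filter of a mean of 1 TPM. CYCA2;1, CYCD3;3 and CDKB1;1 did not and are given by their values alone. Members were modest in level, with a median of 3.97 TPM as deposited against 5.11 TPM for the median tested nuclear gene. The inhibitors LGO (60.9 TPM), SIM (28.6 TPM) and KRP1 (20.14 TPM) had the highest means, followed by CYCD2;1 (15.9 TPM), PCNA1 (12.4 TPM) and CYCB2;4 (11.2 TPM).

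**Figure D2:**
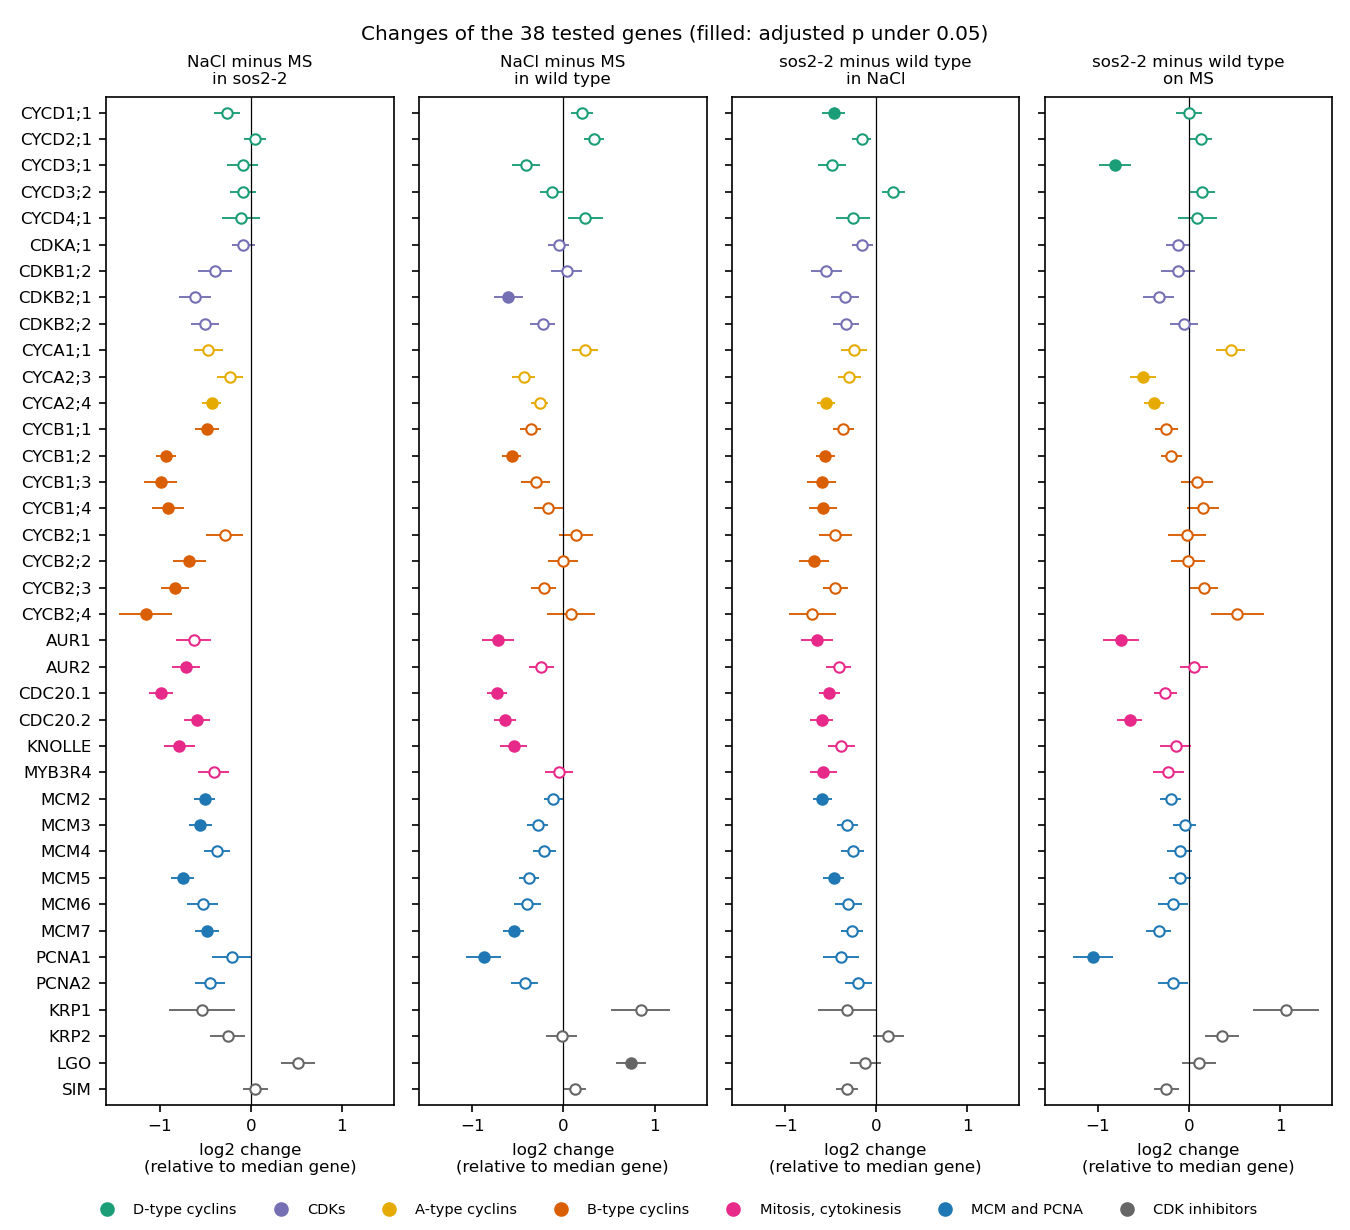
Log2 change (x axis, relative to the median tested gene, bars are standard errors) of the 38 tested members in 4 comparisons, coloured by role, with filled points for an adjusted p under 0.05. In sos2-2, 35 of 38 points lie below 0 after salt and 16 are filled, while in wild type 28 lie below 0 and 9 are filled.

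Salt was followed by lower levels of mitotic cyclins, mitotic regulators and helicase subunits in sos2-2. Of the 38 tested members 16 fell and none rose, while 4.21% of all tested genes were called lower and 4.61% higher. Those that fell were 7 of 8 B-type cyclins, CYCA2;4, AUR2, CDC20.1, CDC20.2, KNOLLE, MCM2, MCM3, MCM5 and MCM7. The median change of the members was -0.48 on the log2 scale, against -0.04 for all genes, and in 26 members every NaCl library lay below both MS libraries, as in 22.9% of all genes. The 22 uncalled members spanned -0.63 (AUR1) to 0.52 (LGO). Of 10 photosynthesis genes, markers of the shoot, 2 fell in the same comparison, RBCS2B by 0.93 and RCA, the Rubisco activase, by 0.81 (adjusted p = 0.0206 and 0.00265), neither of them as deposited, and of 9 tested root markers none was called. The part of organ makeup in the members' change was not tested.

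The count for sos2-2 rested on its MS libraries and on the scale. It was 10 without sos2-2 on MS replicate 1 and 4 without replicate 2. Without replicates 1, 2 and 3 of sos2-2 in NaCl it was 11, 9 and 10. With size factors applied before the log it was 12, with 3.38% of all genes called lower, and it lost the calls of CYCB1;1, CYCB2;2, CDC20.2 and MCM7. As deposited it was 3, namely CYCB1;2, CYCB1;3 and CDC20.1, on a scale where the median gene rose by 0.16 and 0.936% of all genes were called lower.

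In wild type, salt was followed by lower levels of mitotic regulators, CYCB1;2, CDKB2;1, MCM7 and PCNA1. Of 38 members 8 fell, namely CYCB1;2, CDKB2;1, AUR1, CDC20.1, CDC20.2, KNOLLE, MCM7 and PCNA1, and LGO rose, while 6.36% of all tested genes were called lower and 3.84% higher. The median change of the members was -0.22, against -0.01 for all genes. All NaCl libraries lay below all MS libraries for 16 members (16.9% of all genes) and above them for 4 (13% of all genes). The 29 uncalled members spanned -0.44 (CYCA2;3) to 0.85 (KRP1).

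The 9 calls in wild type became 5, 5 and 4 without replicates 1, 2 and 3 of wild type on MS. They became 13, 3 and 2 without replicates 1, 2 and 3 of wild type in NaCl. As deposited 9 members fell, with 7.71% of all genes called lower, and none rose, since LGO lost its call and PCNA2 gained one, so that on that scale more members were called in wild type (9) than in sos2-2 (3). Shoot markers moved with this comparison: 7 of 10 photosynthesis genes fell, on both scales, with RBCS2B changing by -1.60 ± 0.19 and RCA by -0.77 ± 0.11 (SE, adjusted p = 0.000903 and 0.00265). Their part in the members' change was not tested.

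Both genotypes shared 5 members that fell in salt: CDC20.1, CDC20.2, CYCB1;2, KNOLLE and MCM7. The 2 comparisons take their means from different libraries but share 1 estimate of the spread, so their calls are not independent. The call of KNOLLE in wild type was lost without replicate 3 of sos2-2 in NaCl. That of MCM7 in sos2-2 was lost without replicate 1, 2 or 3 of wild type on MS or replicate 3 of wild type in NaCl. These are libraries of the other genotype, and both calls were lost without some of their own too. Over all 11 such fits, 5 kept the KNOLLE call and 3 the MCM7 call. Of 7 other settings, 3 kept the KNOLLE call and 2 the MCM7 call. Over either genotype 19 members fell.

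**Figure D3:**
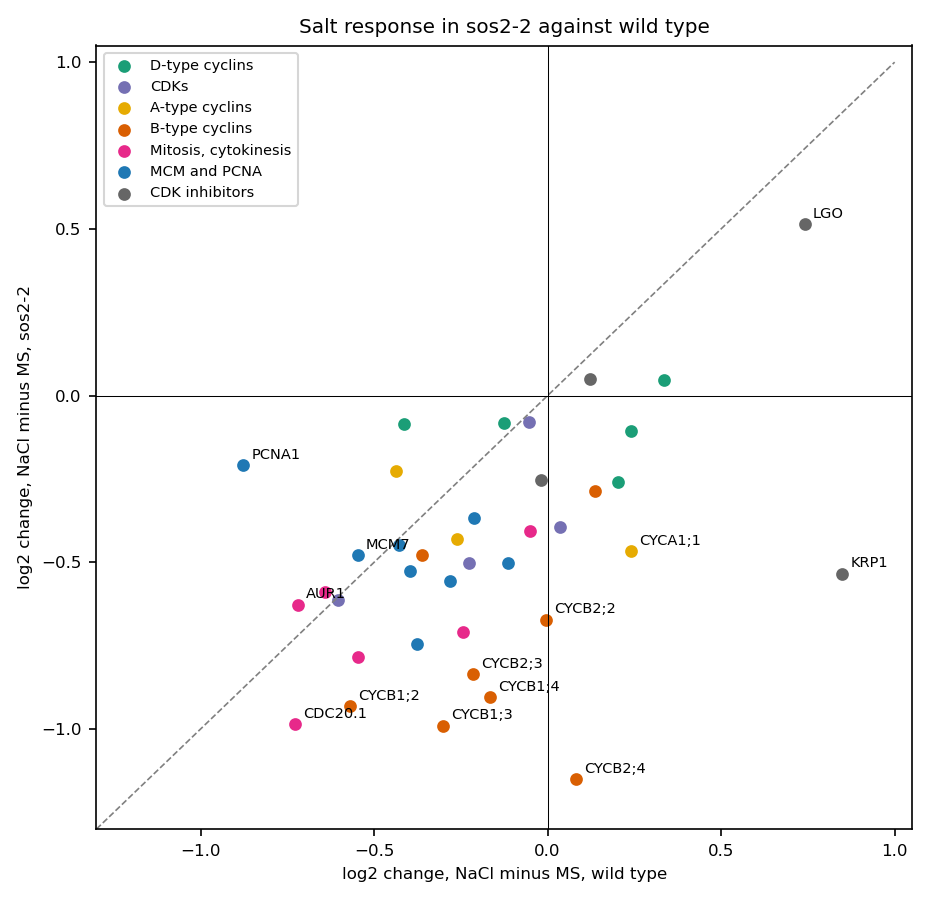
Log2 change after NaCl in sos2-2 (y axis) against that in wild type (x axis) for the 38 tested members, both relative to the median tested gene, with the dashed line marking equal changes. All 8 B-type cyclins lie below the line (6 of the 8 on the deposited scale), with CYCB2;4 at -1.15 in sos2-2 and 0.08 in wild type, and PCNA1 lies above it with -0.21 in sos2-2 and -0.88 in wild type.

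Between genotypes in NaCl, members were lower in sos2-2 relative to the median gene. Of 38 members 12 fell and none rose, while 5.65% of all genes were called lower and 4.96% higher. They were CYCB1;2, CYCB1;3, CYCB1;4, CYCB2;2, CYCA2;4, CYCD1;1, AUR1, CDC20.1, CDC20.2, MYB3R4, MCM2 and MCM5, and 36 of 38 members lay below 0 with a median of -0.38, against -0.05 for all genes. Every sos2-2 library lay below every wild-type library for 23 members, as in 17.3% of all genes. This result turned on the scale: as deposited, where the median gene stood 0.32 higher in sos2-2, no member fell and CYCD3;2 was called higher, while 0.404% of all genes were called lower and 18.9% higher.

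With size factors before the log, where 4.88% of all genes were called lower, 7 of the 12 calls in NaCl were made, without CYCB1;3, CYCB1;4, CYCD1;1, AUR1 and MYB3R4. Rescaling all nuclear genes to 1 total gave 6. Without replicates 2 and 3 of wild type in NaCl there were 6 each, and without replicates 1, 2 and 3 of sos2-2 in NaCl there were 8, 4 and 8. Without wild type on MS replicate 2 there were 8. Meristem genes fell too in this comparison, ANT by 0.44 ± 0.12 and KNAT1 by 0.48 ± 0.11 (SE, adjusted p = 0.0366 and 0.0238), of 3 tested, and neither was called as deposited. Of 9 tested root markers SHR alone was called, lower by 0.37 ± 0.11 (SE, adjusted p = 0.0461), and not as deposited. Of 10 photosynthesis genes none was called, and 5 lay below and 5 above 0. As deposited the root markers EXPA7 and MYB36 and the photosynthesis gene LHCB2.1 were called higher in sos2-2.

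On MS medium, 6 of 38 members were lower in sos2-2 than in wild type and none was higher, while 6.46% of all genes were called lower and 3.83% higher. They were CYCA2;3, CYCA2;4, CYCD3;1, AUR1, CDC20.2 and PCNA1, and the median change of the members was -0.11, against -0.02 for all genes. No member was called without either of the 2 sos2-2 MS libraries, and without replicates 1, 2 and 3 of wild type on MS 1, 1 and 0 were. Without replicates 2 or 3 of wild type in NaCl, and without replicate 2 of sos2-2 in NaCl, 4 were. With size factors, where 6.23% of all genes were called lower, 4 were called, without CYCA2;3 and CYCA2;4, and as deposited only PCNA1 was, on a scale where 1.23% of all genes were called lower. A trend with the purine share of transcripts separated these groups. Its Spearman correlation with the deviations of nuclear genes was -0.391 to -0.087 in wild type on MS, and 0.197 and 0.239 in sos2-2 on MS. In wild type in NaCl it was -0.315, 0.192 and 0.326 in replicates 1, 2 and 3. There replicate 1 lay within the range of wild type on MS, and replicates 2 and 3 lay above it. In sos2-2 in NaCl it was 0.253, -0.18 and 0.039. With the purine and length trend removed, CYCD3;1, AUR1, CDC20.2 and PCNA1 were called on MS. Of 10 photosynthesis markers 2 fell, RBCS1A by 1.19 ± 0.26 and RBCS2B by 0.84 ± 0.21 (SE), while 2 of the uncalled ones lay above 0. Of 9 tested root markers 2 fell, SCR by 0.98 ± 0.20 and COBL9 by 0.60 ± 0.13 (SE), while 3 of the uncalled ones lay above 0. As deposited RBCS1A alone of these was called. Their part in the members' values was not tested.

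D-type cyclins act at entry into the cycle, and none of the 5 tested was called after NaCl in sos2-2 or in wild type. CYCD2;1 was close to the threshold in wild type, at 0.34 ± 0.11 (SE, adjusted p = 0.0673), and was called higher there in 4 of 7 other settings: nuclear genes scaled to equal totals, a pseudocount of 0.1, the purine and length trend removed, and size factors before the log. CYCD3;1 (AT4G34160), a cyclin that drives division in young leaves, had 6.65, 7.56 and 7.44 normalised TPM in sos2-2 in NaCl, 7.58 and 7.57 in sos2-2 on MS, 13.4, 10.1 and 8.41 in wild type in NaCl, and 14.3, 15.0 and 12.3 in wild type on MS. On this scale all 5 sos2-2 libraries were below all 6 wild-type libraries. As deposited they were not: sos2-2 ran from 6.76 to 9.17 TPM, and the lowest wild-type library had 5.93 TPM. On MS it was lower in sos2-2 by a log2 change of -0.81 ± 0.17 (SE, adjusted p = 0.0207). That call was kept in 6 of 11 fits that left out 1 library, at adjusted p of up to 0.138, and was lost as deposited.

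CYCD1;1 (AT1G70210), another early G1 cyclin, had 3.03, 3.39 and 2.94 normalised TPM in sos2-2 in NaCl, 3.22 and 4.42 in sos2-2 on MS, 4.52, 4.06 and 5.002 in wild type in NaCl, and 3.27, 3.84 and 4.10 in wild type on MS. In NaCl its change in sos2-2 against wild type was -0.47 ± 0.13 (SE, adjusted p = 0.0399), which was lost with size factors (7 calls in all) and in 8 of 11 fits that left out 1 library. The uncalled D-type cyclins CYCD2;1, CYCD3;2 and CYCD4;1 stayed within log2 changes of -0.25 and 0.34 in all 4 comparisons. CYCD3;3 lay between 0.463 and 1.53 normalised TPM in all libraries.

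Among the kinases, CDKA;1 (AT3G48750), the CDK present throughout the cycle, lay between 7.28 and 9.70 normalised TPM in every library and was called in no comparison. CDKB2;1 (AT1G76540), a kinase of G2 and mitosis, had 6.06, 5.05 and 6.84 normalised TPM in sos2-2 in NaCl, 8.94 and 9.95 in sos2-2 on MS, 9.71, 6.86 and 6.86 in wild type in NaCl, and 11.9, 10.5 and 13.4 in wild type on MS. In each genotype all NaCl libraries lay below all MS libraries. The change was -0.61 ± 0.17 in sos2-2 (SE, adjusted p = 0.0538, not called) and -0.60 ± 0.16 in wild type (SE, adjusted p = 0.034). Its locus overlaps a gene on the opposite strand, as do those of 14 members in all (among them AUR1, AUR2, KNOLLE, MCM7, LGO, CYCA2;3 and CYCD1;1), and their values are uncertain because no source used here says whether counting used the strand. CDKB1;2 and CDKB2;2 were called in no comparison, at means of 1.04 and 1.23 TPM as deposited, and CDKB1;1 lay between 0.491 and 1.499 normalised TPM.

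**Figure D4:**
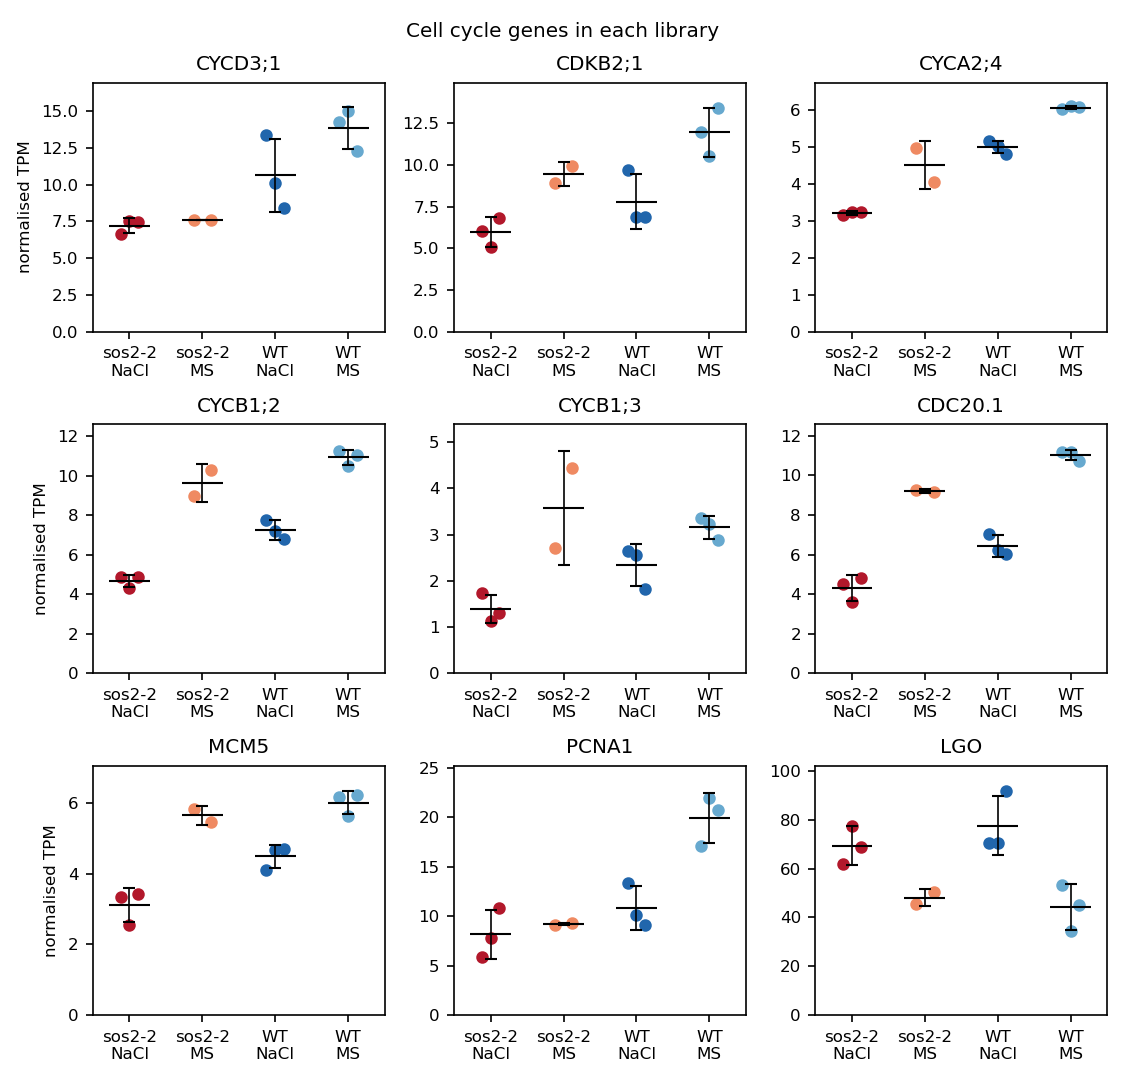
Normalised TPM (y axis, from 0) of 9 members in each library, by group, with the mean as a line and the standard deviation as a bar (n = 3, and n = 2 for sos2-2 on MS). CYCB1;2 and CDC20.1 are lowest in the 3 sos2-2 libraries in NaCl, and LGO is highest in the NaCl libraries of both genotypes.

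CYCA2;4 (AT1G80370), an A-type cyclin that acts with B-type CDKs, was called lower with salt in sos2-2, and lower in sos2-2 than in wild type on both media. It had 3.16, 3.22 and 3.24 normalised TPM in sos2-2 in NaCl, 4.96 and 4.05 in sos2-2 on MS, 5.15, 5.02 and 4.81 in wild type in NaCl, and 6.03, 6.08 and 6.06 in wild type on MS. On this scale all NaCl libraries of sos2-2 were below those of every other group, and all wild-type MS libraries were above. As deposited sos2-2 in NaCl (3.40 to 3.99 TPM) overlapped wild type in NaCl (3.39 to 5.08 TPM) and sos2-2 on MS (3.62 and 5.43 TPM). In NaCl the change in sos2-2 against wild type was -0.55 ± 0.10 (SE, adjusted p = 0.00644, at most 0.0299 with any one library left out). On MS it was -0.38 ± 0.11 (SE, adjusted p = 0.0466, up to 0.297), and with salt in sos2-2 it was -0.43 ± 0.11 (SE, adjusted p = 0.0302, up to 0.242). Of 11 fits that left out 1 library, 1 kept the call on MS and 6 that with salt in sos2-2. None of these changes was called as deposited. With salt in wild type it was -0.26 ± 0.10 (SE, adjusted p = 0.11).

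CYCA2;3 (AT1G15570), a related cyclin known for holding back endoreduplication, averaged 3.74 ± 0.677 normalised TPM in sos2-2 in NaCl (SD, n = 3), 4.38 ± 0.513 in sos2-2 on MS (SD, n = 2), 4.64 ± 0.622 in wild type in NaCl and 6.50 ± 0.336 in wild type on MS (SD, n = 3 each). Its change on MS of -0.50 ± 0.14 (SE, adjusted p = 0.0481) was lost in 8 of 11 fits that left out 1 library and with size factors. CYCA2;1 (AT5G25380) was under the filter but separated the genotypes: it had 0.203, 0.338 and 0.326 normalised TPM in sos2-2 in NaCl, 0.152 and 0.278 in sos2-2 on MS, 0.861, 0.792 and 0.680 in wild type in NaCl, and 0.805, 0.681 and 0.891 in wild type on MS. All 5 sos2-2 libraries lay below all 6 wild-type libraries. With no filter on low values it was called lower in sos2-2 on both media. CYCA1;1 was called in no comparison.

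B-type cyclins, which carry cells into mitosis, had the lowest median change of the 7 roles with salt in sos2-2, at -0.87 against -0.19 in wild type, and all 8 lay below 0 in sos2-2, also on the deposited scale. CYCB1;2 (AT5G06150) had 4.86, 4.34 and 4.87 normalised TPM in sos2-2 in NaCl, 8.96 and 10.3 in sos2-2 on MS, 7.76, 7.21 and 6.79 in wild type in NaCl, and 11.2, 10.5 and 11.1 in wild type on MS. The groups did not overlap: sos2-2 in NaCl was lowest, followed by wild type in NaCl, sos2-2 on MS and wild type on MS. Salt changed it by -0.93 ± 0.11 in sos2-2 (SE, adjusted p = 0.000618) and by -0.57 ± 0.10 in wild type (SE, adjusted p = 0.00699). In NaCl the change in sos2-2 against wild type was -0.56 ± 0.10 (SE, adjusted p = 0.00788). These 3 calls held in all 11 fits that left out 1 library, at adjusted p of at most 0.0392, while as deposited the difference in NaCl was not called.

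CYCB1;3 (AT3G11520) had 1.73, 1.14 and 1.30 normalised TPM in sos2-2 in NaCl, 2.70 and 4.44 in sos2-2 on MS, 2.64, 2.56 and 1.83 in wild type in NaCl, and 3.36, 3.22 and 2.88 in wild type on MS. On this scale the sos2-2 NaCl libraries were below all others. As deposited they (1.20 to 1.96 TPM) overlapped wild type in NaCl (1.29 to 2.60 TPM). Its log2 change with salt was -0.99 ± 0.18 in sos2-2 (SE, adjusted p = 0.00564) and -0.30 ± 0.16 in wild type (SE, adjusted p = 0.238). Without replicate 2 of sos2-2 on MS, the higher of the pair, the adjusted p in sos2-2 was 0.0729.

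CYCB2;4 (AT1G76310), the B-type cyclin with the highest level, had 10.7, 4.61 and 6.78 normalised TPM in sos2-2 in NaCl, 15.1 and 18.0 in sos2-2 on MS, 8.77, 13.7 and 14.4 in wild type in NaCl, and 11.8, 8.38 and 12.8 in wild type on MS. NaCl and MS libraries did not overlap in sos2-2 and did in wild type. Its log2 change with salt was -1.15 ± 0.29 in sos2-2 (SE, adjusted p = 0.0323, up to 0.199 with a library left out) and 0.08 ± 0.26 in wild type (SE, adjusted p = 0.871).

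The other called B-type cyclins changed with salt in sos2-2 by -0.48 (CYCB1;1), -0.90 (CYCB1;4), -0.67 (CYCB2;2) and -0.83 (CYCB2;3), at adjusted p from 0.00651 to 0.0471, and in wild type by -0.36, -0.17, -0.00 and -0.21 in the same order, at adjusted p from 0.071 to 0.988. In sos2-2 the calls of CYCB1;1 and CYCB2;2 were each kept in 3 of 11 fits that left out 1 library, at adjusted p of up to 0.203 and 0.404. Each was kept in 2 of 7 other settings. Those of CYCB1;4 and CYCB2;3 were lost without replicate 2 of sos2-2 on MS. None of these calls was kept as deposited. CYCB2;2 (AT4G35620) had 1.97, 2.08 and 2.40 normalised TPM in sos2-2 in NaCl, 2.88 and 5.02 in sos2-2 on MS, 4.51, 3.02 and 4.07 in wild type in NaCl, and 4.06, 3.64 and 3.69 in wild type on MS. In sos2-2 the NaCl libraries lay below those of all other groups on this scale. As deposited they (2.19 to 2.96 TPM) overlapped wild type in NaCl (2.75 to 4.45 TPM). CYCB2;1, at a mean of 1.09 TPM, was called nowhere. On MS no B-type cyclin was called between genotypes, and their changes there ran from -0.25 to 0.53. CYCB1;4 and CYCB2;4, with no copy in the window, were called with salt in sos2-2, and CYCB2;1, with 3 copies, was not.

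**Figure D5:**
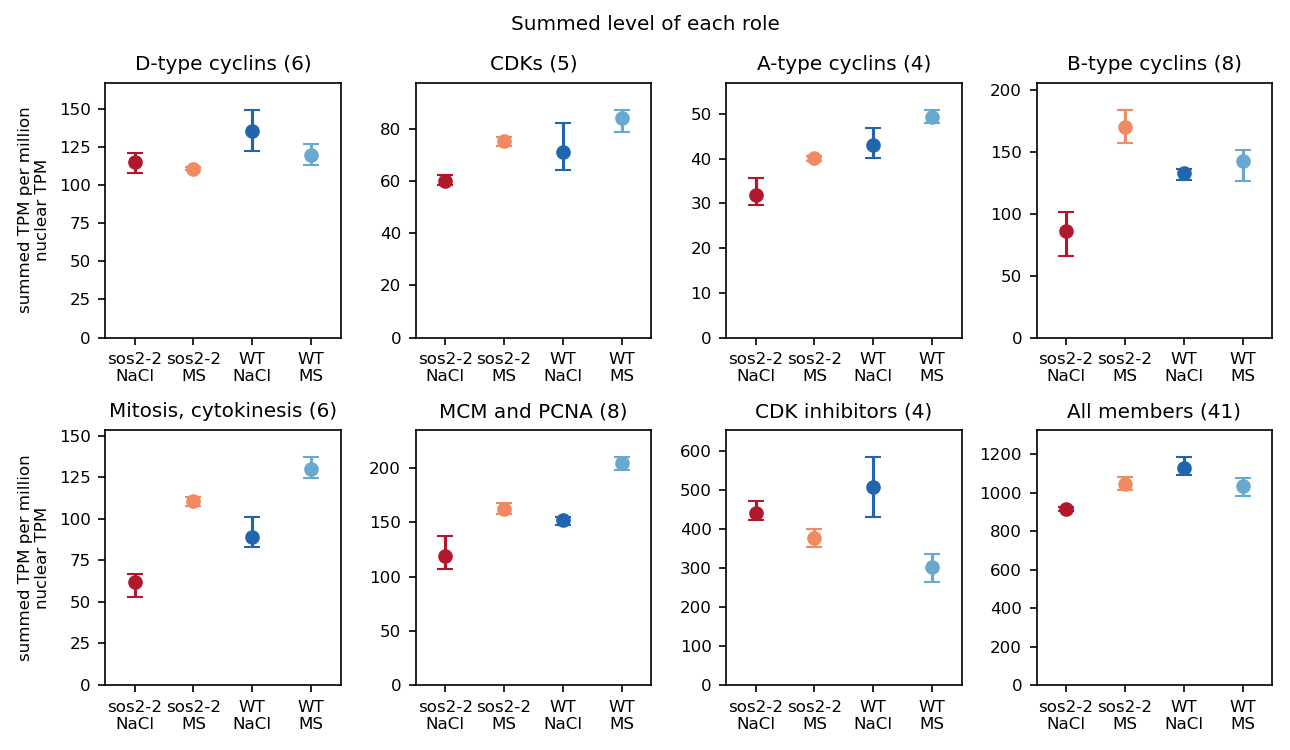
Summed TPM (y axis, from 0), scaled to a nuclear total of 1000000 in each library, of the members of each role, with the number of genes in brackets, as the mean (point) and lowest to highest library (bar) of each group. B-type cyclins summed to 66.1 to 102 in sos2-2 in NaCl, 157 to 184 in sos2-2 on MS, 128 to 137 in wild type in NaCl and 127 to 151 in wild type on MS.

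Of 6 genes of mitosis and cytokinesis, 4 fell with salt in sos2-2 (4.21% of all genes) and 4 in wild type (6.36% of all genes). All 6 lay below 0 in both, on the deposited scale too. CDC20.1 (AT4G33270), an activator of the anaphase-promoting complex, had 4.51, 3.58 and 4.84 normalised TPM in sos2-2 in NaCl, 9.28 and 9.14 in sos2-2 on MS, 7.05, 6.26 and 6.01 in wild type in NaCl, and 11.2, 11.2 and 10.7 in wild type on MS. On this scale no group overlapped another, and the order was that of CYCB1;2. As deposited sos2-2 in NaCl (3.78 to 5.96 TPM) overlapped wild type in NaCl (4.24 to 6.96 TPM). The change between them (-0.52, adjusted p = 0.0184) was not called as deposited. Salt changed it by -0.98 ± 0.13 in sos2-2 (SE, adjusted p = 0.000852) and -0.73 ± 0.11 in wild type (SE, adjusted p = 0.00358), and both calls held with any one library left out, at adjusted p of at most 0.0212.

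CDC20.2 (AT4G33260), its neighbour and close copy, had 1.46, 1.84 and 1.71 normalised TPM in sos2-2 in NaCl, 3.11 and 2.53 in sos2-2 on MS, 3.40, 2.75 and 2.27 in wild type in NaCl, and 5.34, 4.82 and 4.60 in wild type on MS. It was the only member called in all 4 comparisons, at -0.59 ± 0.14 and -0.64 ± 0.12 with salt in sos2-2 and in wild type, and -0.60 ± 0.12 and -0.65 ± 0.14 in sos2-2 against wild type in NaCl and on MS (SE, adjusted p from 0.0108 to 0.0237). Each of these was lost without at least 1 library, with adjusted p of up to 0.18. Reads of CDC20.1 and CDC20.2 may be shared by the estimation, so the split between them is uncertain.

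AUR1 (AT4G32830), an Aurora kinase of the spindle and cell plate, had 1.53, 1.67 and 2.08 normalised TPM in sos2-2 in NaCl, 2.94 and 3.18 in sos2-2 on MS, 4.27, 2.32 and 2.87 in wild type in NaCl, and 6.78, 5.96 and 4.58 in wild type on MS. Wild type on MS lay above all other groups. It changed by -0.74 ± 0.20 in sos2-2 against wild type on MS and by -0.65 ± 0.18 in NaCl (SE, adjusted p = 0.0383 and 0.039). The call on MS was kept in 6 of 11 fits that left out 1 library, and that in NaCl in 3 of 11. Each was kept in 3 of 7 other settings, and neither as deposited. Its change with salt was -0.63 ± 0.20 in sos2-2 and -0.72 ± 0.18 in wild type (SE, adjusted p = 0.0744 and 0.0279), and 7 of 11 such fits kept the call in wild type. AUR2, its close relative, had log2 changes with salt of -0.71 ± 0.15 in sos2-2 and -0.24 ± 0.14 in wild type (SE, adjusted p = 0.0148 and 0.265).

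KNOLLE (AT1G08560), needed to build the cell plate, had 6.44, 4.13 and 4.98 normalised TPM in sos2-2 in NaCl, 7.84 and 11.1 in sos2-2 on MS, 7.25, 6.86 and 6.51 in wild type in NaCl, and 10.5, 9.72 and 10.4 in wild type on MS. NaCl libraries lay below MS libraries in both genotypes. The changes were -0.78 ± 0.17 in sos2-2 and -0.55 ± 0.15 in wild type (SE, adjusted p = 0.0151 and 0.0427), and the second was lost with size factors. MYB3R4 (AT5G11510), an activator of MSA promoters, changed by -0.58 ± 0.15 in sos2-2 against wild type in NaCl (SE, adjusted p = 0.0354), at 0.708 to 1.15 normalised TPM in sos2-2 against 1.57 to 1.82 in wild type, and lost that call with size factors.

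All 8 replication genes lay below 0 in each of the 4 comparisons, with medians of -0.49 and -0.39 with salt in sos2-2 and in wild type, and -0.31 and -0.18 in sos2-2 against wild type in NaCl and on MS, although as deposited only 3 of the 8 did so in NaCl between genotypes. MCM2 to MCM7 encode the subunits of the helicase that opens DNA at the fork. MCM5 (AT2G07690) had 3.35, 2.55 and 3.41 normalised TPM in sos2-2 in NaCl, 5.85 and 5.45 in sos2-2 on MS, 4.12, 4.67 and 4.70 in wild type in NaCl, and 6.17, 5.64 and 6.24 in wild type on MS. On this scale the genotypes overlapped on MS and not in NaCl, and as deposited they overlapped on both. Its log2 change with salt was -0.75 ± 0.12 in sos2-2 (SE, adjusted p = 0.00375, at most 0.0451 with any one library left out) and -0.38 ± 0.11 in wild type (SE, adjusted p = 0.0547).

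MCM2 (AT1G44900) had 2.84, 2.87 and 3.02 normalised TPM in sos2-2 in NaCl, 4.01 and 4.75 in sos2-2 on MS, 4.08, 5.04 and 5.08 in wild type in NaCl, and 4.91, 5.15 and 5.18 in wild type on MS. Its level was low in sos2-2 in NaCl and overlapped between the other sos2-2 group and wild type in NaCl. In NaCl the change in sos2-2 against wild type was -0.59 ± 0.10 (SE, adjusted p = 0.00655, at most 0.0344 with any one library left out), and its change with salt was -0.50 ± 0.12 in sos2-2 and -0.11 ± 0.10 in wild type (SE, adjusted p = 0.0207 and 0.509). MCM3 had log2 changes with salt of -0.56 ± 0.13 in sos2-2 and -0.28 ± 0.11 in wild type (SE, adjusted p = 0.0201 and 0.137). MCM4 and MCM6, whose promoters also carry an E2F spelling, were called in no comparison.

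MCM7 (AT4G02060) had 3.84, 3.91 and 4.83 normalised TPM in sos2-2 in NaCl, 6.35 and 5.72 in sos2-2 on MS, 5.73, 4.33 and 5.26 in wild type in NaCl, and 7.83, 7.55 and 7.78 in wild type on MS. After NaCl it changed by -0.48 ± 0.13 in sos2-2 and -0.55 ± 0.12 in wild type (SE, adjusted p = 0.0483 and 0.018), and the first was lost with size factors. NaCl libraries lay below MS libraries in both genotypes on this scale, and those of sos2-2 overlapped as deposited.

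PCNA1 (AT1G07370), a sliding clamp that holds DNA polymerase on the template, was set apart by wild type on MS. It had 5.92, 7.79 and 10.8 normalised TPM in sos2-2 in NaCl, 9.11 and 9.30 in sos2-2 on MS, 13.3, 10.1 and 9.10 in wild type in NaCl, and 17.1, 22.0 and 20.8 in wild type on MS. The other 3 groups overlapped. On MS it was lower in sos2-2 by -1.06 ± 0.22 (SE, adjusted p = 0.0199), and its change with salt was -0.21 ± 0.22 in sos2-2 and -0.88 ± 0.20 in wild type (SE, adjusted p = 0.635 and 0.0205). Calls on PCNA1 were lost without either sos2-2 MS library or without some wild-type libraries, at adjusted p of up to 0.134, and the call on MS was lost with a replicate block as well. PCNA2 was not called, at -0.45 ± 0.17 and -0.43 ± 0.15 with salt in sos2-2 and in wild type (SE, adjusted p = 0.129 and 0.0928), and gained a call in wild type as deposited.

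Of the 4 CDK inhibitors only LGO was called, and it was higher with salt in wild type. LGO (AT3G10525), also known as SMR1 and needed for giant cells in the sepal epidermis, had 61.7, 77.5 and 69.0 normalised TPM in sos2-2 in NaCl, 45.6 and 50.5 in sos2-2 on MS, 70.7, 70.6 and 91.7 in wild type in NaCl, and 53.2, 34.4 and 45.1 in wild type on MS. Every NaCl library lay above every MS library. Its log2 change with salt was 0.52 ± 0.19 in sos2-2 and 0.74 ± 0.17 in wild type (SE, adjusted p = 0.121 and 0.0206), and the call in wild type was lost as deposited and in 4 of 11 fits that left out 1 library, at adjusted p of up to 0.0904.

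KRP1 (AT2G23430), a CDK inhibitor, had 25.0, 18.5 and 13.8 normalised TPM in sos2-2 in NaCl, 23.8 and 30.9 in sos2-2 on MS, 12.8, 28.6 and 36.1 in wild type in NaCl, and 13.3, 9.15 and 14.8 in wild type on MS. Replicate 1 of wild type in NaCl was within the wild-type MS range, and the other 2 were above it. Its log2 change with salt was -0.53 ± 0.36 in sos2-2 and 0.85 ± 0.32 in wild type (SE, adjusted p = 0.424 and 0.12). KRP2 and SIM (AT5G04470), the founder of the SIAMESE family, were not called, with changes between -0.32 and 0.37 over the 4 comparisons.

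The difference in salt response between genotypes, the interaction, was called by limma for none of the 38 members and for 0.749% of all tested genes, and 13 members had an unadjusted p under 0.05 (34.2%), against 2730 of 16564 genes (16.5%). The fits with other settings on all 11 libraries called none either. For 31 of 38 members the interaction was below 0, with a median of -0.27 against -0.00 for all genes, while on the deposited scale, where the median gene was at 0.39, it was below 0 for 11. The 6 members with the smallest adjusted p were CYCA1;1 (-0.70 ± 0.21), CYCB2;4 (-1.23 ± 0.39), CYCB1;4 (-0.74 ± 0.24), CYCB2;3 (-0.62 ± 0.20), CYCB1;3 (-0.69 ± 0.24) and KRP1 (-1.38 ± 0.48), at adjusted p from 0.198 to 0.233 (SE in brackets). All 8 B-type cyclins lay below 0 with a median of -0.64 (6 of the 8 as deposited), and 6 had an unadjusted p under 0.05. Without replicate 1 of wild type in NaCl, 2 members were called, CYCB2;4 and KRP1, and 1550 genes in all against 124.

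Other genes of the pathway were taken from lists of 20 mitosis genes, 14 genes of G1 and S phase entry, 23 replication genes, 13 histone genes (H3.1 and H4) and 13 other CDK inhibitors. With salt 7 of 16 tested mitosis genes fell in sos2-2 (4.21% of all genes) and 5 in wild type (6.36% of all genes). As deposited CCS52B alone kept its call in sos2-2, and all 5 kept theirs in wild type. CCS52B, an activator of the anaphase-promoting complex, had 2.07 to 2.82 normalised TPM in sos2-2 in NaCl, against 6.01 and 7.17 in sos2-2 on MS, and 3.76 to 4.58 in wild type in NaCl, against 5.27 to 7.13 in wild type on MS. It changed by -1.23 ± 0.15 in sos2-2 and -0.56 ± 0.14 in wild type (SE, adjusted p = 0.000671 and 0.0273). BUBR1, of the spindle checkpoint, changed by -0.91 ± 0.14 and -0.49 ± 0.13 (SE, adjusted p = 0.00274 and 0.0351), and HIK, a kinesin of the phragmoplast, by -0.80 ± 0.16 in sos2-2 (SE, adjusted p = 0.0088). EDE1, a microtubule-binding protein, was lower in sos2-2 on MS by -0.70 ± 0.15 and in NaCl by -0.66 ± 0.14 (SE, adjusted p = 0.0234 and 0.0147). In NaCl 7 of the 16 mitosis genes were lower in sos2-2 (5.65% of all genes) and on MS 1 was (6.46%), and as deposited none of the 7 was called while the call of EDE1 on MS was kept.

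Of 17 tested replication genes 8 fell with salt in sos2-2, against 4.21% of all genes. Among them were POL2A, the catalytic subunit of DNA polymerase epsilon (-0.71 ± 0.13), and FAS1, of the chromatin assembly factor (-0.67 ± 0.14, SE, adjusted p = 0.00618 and 0.016). None of the 8 was called as deposited. In wild type 1 of 17 fell, a share (5.88%) near that of all genes (6.36%), namely CDT1B, a licensing factor (-0.61 ± 0.13, SE, adjusted p = 0.0143). Of 12 tested genes of G1 and S phase entry 3 fell with salt in sos2-2, against 4.21% of all genes. They were DEL1, CYCA3;2 and E2FC, none of them called as deposited. None of the 12 was called in wild type, where none had an unadjusted p under 0.05. E2FB, an E2F activator, was lower in sos2-2 on MS by -0.43 ± 0.12 and in NaCl by -0.64 ± 0.10 (SE, adjusted p = 0.0421 and 0.00446), and neither was called as deposited. Of 9 tested other inhibitors 1 fell with salt in wild type, against 6.36% of all genes, namely SMR8 (-0.93 ± 0.22, SE, adjusted p = 0.026). With salt in sos2-2 1 of the 9 rose, against 4.61% of all genes, namely KRP7 (0.78 ± 0.16, SE, adjusted p = 0.0126). KRP7 had 5.61 to 7.25 normalised TPM in sos2-2 in NaCl, against 2.82 and 3.37 in sos2-2 on MS, and was lower in sos2-2 than in wild type on MS (-0.81 ± 0.16, SE, adjusted p = 0.0177). On MS 2 of the 9 were called lower, KRP7 and SMR2, against 6.46% of all genes, and neither as deposited.

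Histone genes are transcribed in S phase to pack new DNA. With salt 4 of 13 fell in sos2-2 (4.21% of all genes) and 6 in wild type (6.36% of all genes). HTR2, an H3.1 gene, changed by -0.81 ± 0.18 and -0.73 ± 0.16 (SE, adjusted p = 0.0166 and 0.0182). As deposited none of the 4 and 5 of the 6 were called. On MS 5 of the H4 genes were higher in sos2-2 than in wild type (3.83% of all genes), 3 of them also as deposited. In NaCl 2 were higher in sos2-2 (4.96% of all genes), both also as deposited (18.9% of all genes). HTR13, an H3.1 gene, was lower in sos2-2 on MS (6.46% of all genes) and in NaCl (5.65% of all genes), and was called in neither as deposited. The H4 gene AT3G45930 had 15.2 and 17.9 normalised TPM in sos2-2 on MS, against 5.50 to 6.18 in wild type on MS, a change of 1.33 ± 0.16 (SE, adjusted p = 0.00672). H4 genes are near-identical and can exchange reads in such estimates, so single H4 values are uncertain. No gene of these 5 lists was called for the interaction, and 12 of 67 had an unadjusted p under 0.05 (17.9%), close to the 16.5% of all tested genes. As to organ makeup, scaled to a nuclear total of 1000000 TPM, root markers summed to 98.7 to 113 in sos2-2 in NaCl, 94.9 to 99.9 in sos2-2 on MS, 118 to 132 in wild type in NaCl and 116 to 139 in wild type on MS. Of 10 meristem markers 7 had means under 1 TPM and WUS was listed at 0 in every library, and the 10 summed to 66.97 to 76.5, 66.7 and 68.2, 86.7 to 98.8, and 70.0 to 83.0 in the same groups, so that both sos2-2 groups lay below wild type in NaCl. The part of these in the members' values was not tested.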

How the data were processed

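The authors deposited TPM for 48359 transcripts. The submitters' processing notes name kallisto 0.46.2, sleuth 0.30.0 and TAIR10, without saying which tool did what. The small RNA table was not used here. TPM was summed to genes, and genes with a mean of at least 1 TPM over all 11 libraries were tested: 16369 nuclear, 88 plastid and 107 mitochondrial. log2(TPM + 1) was centred on the median tested gene of each library and fitted in 1 model over 4 groups with limma 3.58.1 (R 4.3.3, intensity trend), so groups share 1 estimate of the spread. P-values were adjusted over all tested genes by Benjamini-Hochberg and called under 0.05. The fit was tested on simulated data. Size factors were median ratios to the geometric mean over tested genes above 0 in every library. Centring after adding 1 moves genes of low TPM too far. It moved them down with salt in sos2-2 and in sos2-2 against wild type in NaCl. With salt in wild type, and by less between genotypes on MS, it moved them up. Size factors before the log were therefore added as an alternative after seeing the data. Other alternatives were the values as deposited, nuclear genes scaled to equal totals, a pseudocount of 0.1, no filter, a replicate block, removal of a purine and length trend, and leaving out each library. Members and lists were chosen with earlier results of these data known. In each comparison the called members, or up to 6 with the smallest adjusted p, were named, and up to 4 genes of each other list. Genomic positions and promoters are from TAIR10.1 RefSeq, whose nuclear chromosomes are those of TAIR10. No 2 libraries were identical. Figures used matplotlib 3.10.9.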

Additional observations from a re-analysis of the deposited data

How the results depend on the processing

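Of the 38 members, the numbers called (main values 16, 9, 12 and 6 for salt in sos2-2, salt in wild type, sos2-2 against wild type in NaCl and on MS) moved by over 1.5 times, in at least 1 comparison, in 5 of 7 other settings on all libraries. As deposited they were 3, 9, 1 and 1. Rescaling all nuclear genes to 1 total gave 10, 8, 6 and 3. Size factors before the log, chosen after seeing the data, gave 12, 9, 7 and 4. With the purine and length trend removed they were 19, 14, 14 and 4. A pseudocount of 0.1 gave 16, 10, 10 and 5, and no filter gave 12, 8, 12 and 4. Over all genes, the values as deposited called 3205 genes between genotypes in NaCl, 462 on MS and 338 for the interaction, against 1757, 1705 and 124. The different medians of the libraries on the deposited scale shift every gene, and the causes of the other moves were not tested.

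Replicate numbers did not pair the libraries by the correlation of deviations, which ran from -0.526 to 0.294. With a replicate block 13, 8, 11 and 2 members were called, and of all genes 825 on MS between genotypes and 71 for the interaction.

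Leaving out 1 library at a time called 4 to 19 members for salt in sos2-2, 2 to 13 for salt in wild type, 4 to 11 between genotypes in NaCl, 0 to 7 on MS and 0 to 2 for the interaction. For all genes the ranges were 568 to 1829, 553 to 3748, 674 to 2315, 14 to 2939 and 33 to 1550. No called change of a member reversed its direction in a setting. Of all 38 members, called or not, the values as deposited turned the direction of 15 between genotypes in NaCl, 20 for the interaction, 4 with salt in each genotype and none on MS. TPM keeps no depth, so what depth limits could not be judged.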
